A study of Mus musculus with 12 samples.

Results

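A set of 10 genes was followed across 4 groups of cultured mouse liver cells: Tm4sf1, Sparc, Cyba, Dcdc2a, Rassf9, Cryab, Kyat3, Hapln4, Gata4 and Prkaa2. They were picked by symbol from a table of 53599 genes, as autosomal genes whose RNA differed between cells of biliary and of hepatocyte origin. The cells are chemically induced liver progenitors (CLiPs), proliferating cells obtained by growing mature liver cells with small molecules. The name hepCLiP stands for cells that began as hepatocytes and bilCLiP for cells that began as biliary epithelial cells, and 3 libraries of each were made in 2D and 3 in 3D. In 2D the cells grew on plates coated with collagen. Their small hepatocyte medium held 10% serum (FBS) and 3 inhibitors, Y-27632 of ROCK, A83-01 of TGF-beta receptors and CHIR99021 of GSK3. For 3D, spheroids were formed over 3 days in that medium without serum and were then held in suspension for 6 to 8 days with the 3 inhibitors and 10 ng/ml of the cytokine oncostatin M. Geometry, serum, oncostatin M and time therefore cannot be told apart in the 2D and 3D comparison. Every sample carries a fluorescent reporter at the Rosa26 locus, RosaConfetti in hepCLiP replicates 1 and 3 and RosaYFP in hepCLiP replicate 2 and all bilCLiP samples. The labels give no age, strain or Cre driver. They do not tie replicates to separate animals either, so a p-value here measures the spread between samples, which may be technical.

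Hepatocytes and biliary epithelial cells are the 2 epithelial lineages of the liver and arise from a common fetal progenitor. Hepatocytes carry out most of the liver's metabolism, including the breakdown of amino acids, whereas biliary cells line the ducts, bear a primary cilium and modify bile. The 10 genes belong to different processes. Tm4sf1 encodes a four-pass surface protein of the L6 family, Sparc a secreted collagen-binding glycoprotein, Hapln4 a link protein that joins hyaluronan to proteoglycans, and Cyba the membrane partner that stabilises the catalytic NADPH oxidase subunits. Dcdc2a encodes a doublecortin-domain protein of microtubules and the primary cilium, Rassf9 a Ras-association protein of recycling endosomes, and Cryab the small heat shock protein alpha-B crystallin. Kyat3 is a kynurenine aminotransferase, Prkaa2 a catalytic alpha subunit of the energy sensor AMP-activated protein kinase (AMPK), and Gata4 a zinc finger transcription factor of endoderm and liver development.

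The stretch of 250 bases before the transcription start is shown for the 3 genes whose group means stood furthest apart between origins in 2D. The RefSeq promoter table held 6 of the 10. Capitals mark matches, on either strand, to 4 short motifs: the CCAAT box, the core GATAA that proteins of the Gata4 family bind, the GC box GGGCGG and, for the basal machinery, the box TATAAA. These motifs do not overlap one another as searched. All stretches are from build GRCm38.p6, not the GRCm39 build of the counts.
Tm4sf1, chr3:57301989-57302238, minus strand: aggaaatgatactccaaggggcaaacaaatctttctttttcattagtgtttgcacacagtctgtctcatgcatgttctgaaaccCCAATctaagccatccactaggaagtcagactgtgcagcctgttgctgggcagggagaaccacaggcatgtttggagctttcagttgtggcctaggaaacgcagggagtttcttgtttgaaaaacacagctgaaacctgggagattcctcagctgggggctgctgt
Cyba, chr8:122432941-122433190, minus strand: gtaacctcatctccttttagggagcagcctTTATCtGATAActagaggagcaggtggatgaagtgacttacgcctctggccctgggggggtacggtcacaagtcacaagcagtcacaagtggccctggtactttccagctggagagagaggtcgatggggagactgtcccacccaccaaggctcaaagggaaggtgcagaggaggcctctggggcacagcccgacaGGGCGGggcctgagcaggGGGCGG
Kyat3, chr3:142700798-142701047, plus strand: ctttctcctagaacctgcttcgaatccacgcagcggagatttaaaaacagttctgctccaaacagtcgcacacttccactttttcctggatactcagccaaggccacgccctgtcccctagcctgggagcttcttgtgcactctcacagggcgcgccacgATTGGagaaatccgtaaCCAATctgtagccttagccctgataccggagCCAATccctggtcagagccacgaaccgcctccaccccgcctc
The Tm4sf1 stretch held 1 CpG and 1 CCAAT match, the Cyba stretch 6 CpG, 2 GATAA and 2 GGGCGG matches, and the Kyat3 stretch 13 CpG and 3 CCAAT matches. No TATAAA was found in any of them. Over all 32851 promoters of the table the median was 6 CpG per 250 bases, and 33.8% held CCAAT, 22.6% GATAA, 32.7% GGGCGG and 12.4% TATAAA. A match is a description of these letters only.

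All 12 libraries held 16142365 to 21253382 counts, and 14798 genes passed the filter on low counts, the 10 among them. Levels are given in CPM, counts scaled to a common library total with TMM factors, so that libraries of unlike depth can be compared. Groups were taken from the sample titles, and 4 treatment tags go against them: hepCLiP 2D replicate 3 is tagged 3D and the 3 bilCLiP 3D samples are tagged 2D. Hepatocyte markers such as Alb set the cultures apart by title: all 10 on the marker list were higher in 3D. Markers of hepatocytes, biliary cells and 4 other cell types were also compared between origins. Of 32 such genes tested, 0 were called by edgeR in 2D or in 3D, with 8 and 5 at an unadjusted p under 0.05 (25% and 15.6%, against 14.5% and 16.6% of all genes). The hepatocyte list had a median log2 difference of -3.08 in 2D and -0.74 in 3D, against -0.04 and 0.001 over all genes, with 9 and 8 of its 10 genes lower in bilCLiP. Alb averaged 284 CPM in hepCLiP 2D and 40.01 CPM in bilCLiP 2D, and Cyp3a11 59.6 and 0.809 CPM, but the libraries overlapped for both genes. Alb was at 142, 19.9 and 691 CPM in hepCLiP 2D and at 0.861, 49.9 and 69.3 CPM in bilCLiP 2D. Cyp3a11 was at 3.61, 0.0909 and 175 CPM in hepCLiP 2D and at 0, 0.194 and 2.23 CPM in bilCLiP 2D. In 3D Cyp3a11 averaged 1379 CPM in hepCLiP and 1817 CPM in bilCLiP. Of the 32 genes DESeq2 called 4 in 2D (Apoa1, Cps1, Cyp3a11 and Serpina1c) and 0 in 3D, and limma on the authors' normalized counts called 0 in both.

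Sex-linked transcripts differed between the origins as well. Xist, the RNA that coats the inactive X chromosome, had 13564 to 25529 counts in every bilCLiP library and 0 to 4 in every hepCLiP library. The Y-linked genes Ddx3y, Eif2s3y, Kdm5d and Uty had 340 to 1841 counts each in hepCLiP replicates 1 and 3, 0 to 2 in hepCLiP replicate 2 and 0 in all bilCLiP libraries. Xist thus followed origin in all 12 libraries, hepCLiP replicate 2 included, and the 2 cannot be told apart. Y-linked transcripts and origin cannot be told apart for hepCLiP replicates 1 and 3. In hepCLiP replicate 2 there was almost none of either kind of transcript, so it does not match bilCLiP in Xist. Replicate 2 of hepCLiP is among the libraries on which the 10 genes were chosen. A gap between it and bilCLiP thus follows in part from that choice. The level of none of the 10 genes in hepCLiP replicate 2 reached the bilCLiP range, in 2D or in 3D. It lay within the range of the 2 RosaConfetti libraries for 5 genes in 2D and 3 in 3D. The 3D count includes Cyba, which was at 0 CPM in every hepCLiP 3D library. The level in hepCLiP replicate 2 lay beyond that range on the bilCLiP side for Dcdc2a and Hapln4 in 2D and for Sparc in 3D. Shares over all tested genes were not computed, so these counts say nothing particular to the 10.

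**Figure D1:**
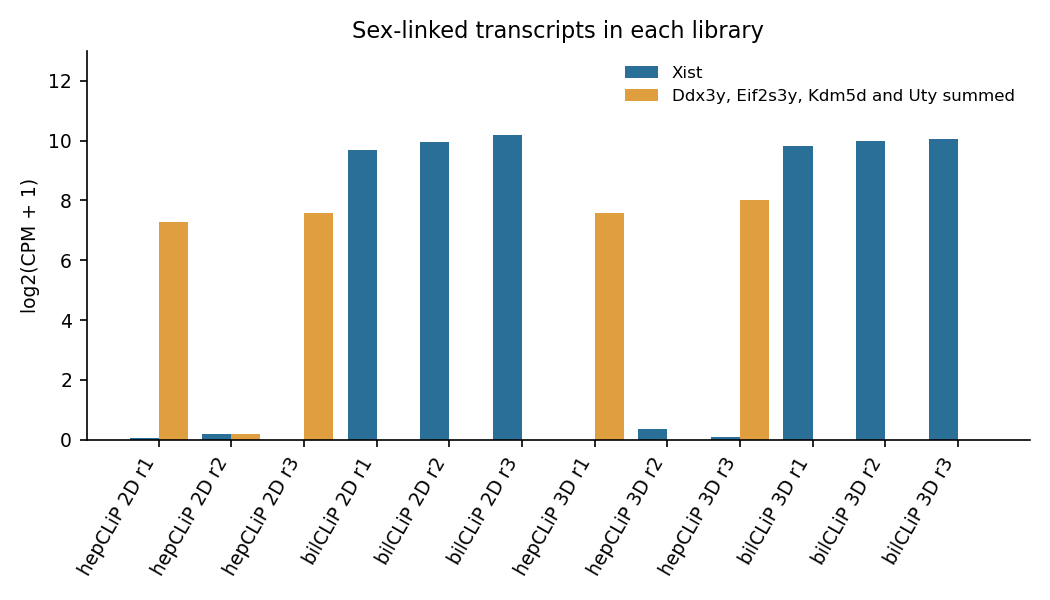
Level of Xist and of 4 Y-linked genes (Ddx3y, Eif2s3y, Kdm5d and Uty, summed) in each of the 12 libraries, as log2(CPM + 1), with bars from 0 and r for replicate. Xist is high in the 6 bilCLiP libraries, the Y-linked genes are high in hepCLiP replicates 1 and 3, and hepCLiP replicate 2 has little of either.

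The 10 genes were chosen on the difference between origins, so that difference is described and not tested. The fit over all genes called 20 genes between origins in 2D (0.135% of those tested; 0.0811% higher and 0.0541% lower in bilCLiP) and 15 in 3D (0.101%; 0.0541% higher and 0.0473% lower), at a Benjamini-Hochberg adjusted p under 0.05 by edgeR's quasi-likelihood test. The 28 genes called in either culture were Xist and 27 autosomal genes. All 10 were among them, 9 called in 2D, 7 in 3D and 6 in both. Of all tested genes 0.0473% were called in both cultures in the same direction, 0.0338% higher and 0.0135% lower in bilCLiP. By adjusted p, Gata4 was the last of the 10 inside the threshold in 2D (log2 fold change -3.40 ± 0.536, SE) and Cryab in 3D (2.53 ± 0.366). Itih3 in 2D (-3.19 ± 0.514) and Rassf9 in 3D (3.57 ± 0.570) were just outside. Cryab in 2D (1.34 ± 0.344), and Gata4 (-2.48 ± 0.508) and Prkaa2 (-0.635 ± 0.208) in 3D, were further outside. These counts move with the method and the libraries: DESeq2 called 152 higher and 307 lower in bilCLiP in 2D and 236 and 341 in 3D, against 12 and 8, and 8 and 7, by edgeR, and without hepCLiP 3D replicate 3 the 3D counts were 129 and 122. In each culture the 3 bilCLiP libraries did not overlap the 3 hepCLiP libraries for any of the 10, 6 higher and 4 lower. Among all tested genes 21% did not overlap in 2D (9.06% higher and 11.9% lower in bilCLiP) and 21.8% in 3D (11.7% and 10.1%). In both cultures and in the same direction it was 6.93%, with 3.43% higher and 3.5% lower.

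**Figure D2:**
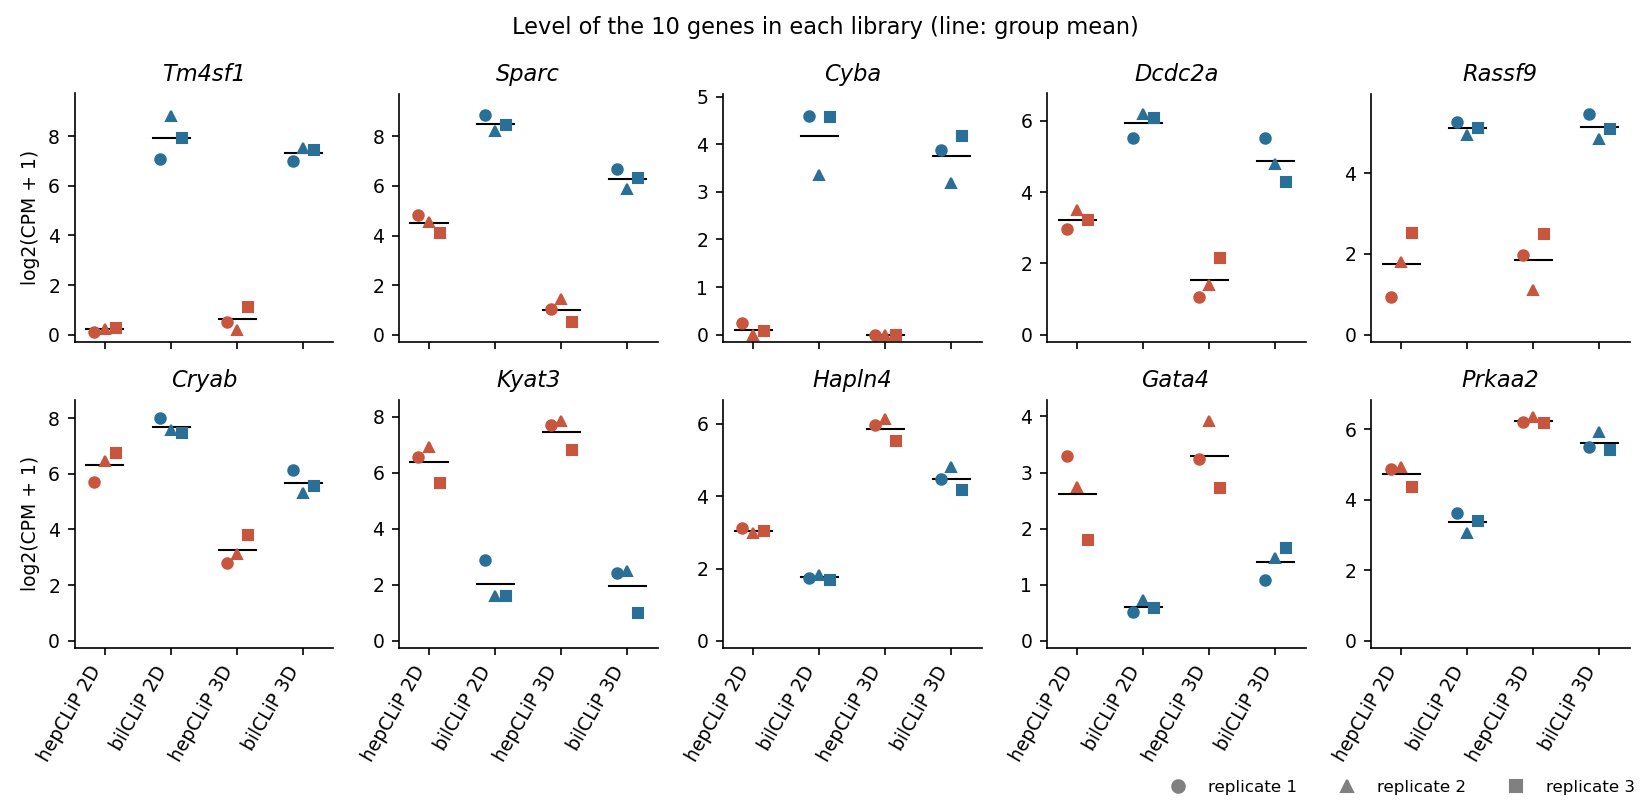
Level of each of the 10 genes in each library, as log2(CPM + 1), by group. Points are libraries (circle, triangle and square for replicates 1, 2 and 3), red for hepCLiP and blue for bilCLiP, and lines are group means. The 6 genes from Tm4sf1 to Cryab are higher in bilCLiP and the 4 from Kyat3 to Prkaa2 are higher in hepCLiP, in 2D and in 3D.

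Tm4sf1 and Cyba, the genes of a surface and of a membrane protein, were nearly silent in hepCLiP. In 2D, Tm4sf1 stood at 0.0925, 0.182 and 0.200 CPM in hepCLiP replicates 1, 2 and 3 and at 133, 451 and 245 CPM in bilCLiP. In 3D it stood at 0.440, 0.142 and 1.18 CPM in hepCLiP and at 127, 182 and 173 CPM in bilCLiP. The hepCLiP libraries of a culture held 10 and 25 counts in all, against 20056 and 8071 in bilCLiP, and the lowest bilCLiP library was 664 times the highest hepCLiP library in 2D and 108 times in 3D. Tm4sf1 is also strong in endothelial cells, whose list of 10 genes summed to 0.636 to 2.15 CPM in hepCLiP 2D, 2.88 to 3.79 in bilCLiP 2D, 0.426 to 0.659 in hepCLiP 3D and 0.132 to 1.44 in bilCLiP 3D, with Emcn at 0 in all libraries. Kdr, the 1 gene of this list that passed the filter, averaged 0.554 CPM in hepCLiP 2D and 2.64 CPM in bilCLiP 2D. In 3D it averaged 0.0944 and 0.0772 CPM. Origin took 98.1% of the sum of squares of the Tm4sf1 log2(CPM + 1) over the 12 libraries, and culture 0.0227%. As the 10 genes were chosen on origin, a high share of origin follows in part from that choice. Culture took more than origin for Hapln4 (80% against 18.5%), Prkaa2 (72.9% against 20.8%) and Cryab (59% against 33.4%), and less for the others.

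Cyba was at 0.185, 0 and 0.05 CPM in hepCLiP 2D, which is 5 counts in 3 libraries. It was at 23.1, 9.21 and 22.6 CPM in bilCLiP 2D, and its fold of group means was 234. In hepCLiP 3D no read was counted, whereas bilCLiP 3D held 13.6, 8.04 and 17.1 CPM. With 3 counts over the group as the floor, Cyba was at least 181-fold higher in bilCLiP 3D, a bound that covers counting error only, as PCR copies are not independent molecules. Replicate 2 was the lowest bilCLiP library in both cultures. Cyba is abundant in phagocytes, and the 10 genes of the leukocyte list were mixed in level. Mean levels of Ptprc, Clec4f, Adgre1, Tyrobp and Cd5l were 0.238 CPM or lower in each group, and those of Lyz2 were 0.126 to 0.561 CPM. Csf1r averaged 3.22 to 11.5 CPM, Cd68 1.76 to 4.33 CPM and Cd74 0.159 to 5.82 CPM. With culture Csf1r rose (adjusted p = 0.025) and so did Cd74 (adjusted p = 0.0078), while Cd68 fell (adjusted p = 0.0477). Cybb, which is on the leukocyte list and encodes a catalytic subunit that pairs with the Cyba protein, was at 19.9 and 13 CPM on average in hepCLiP and bilCLiP 2D and at 113 and 114 CPM in 3D, with bilCLiP replicate 1 the lowest library of its group in 2D (0.431 CPM) and in 3D (36.8 CPM). The whole list summed to 16.3 to 42.2 CPM in hepCLiP 2D, 5.6 to 29.8 in bilCLiP 2D, 89.2 to 159 in hepCLiP 3D and 42.2 to 202 in bilCLiP 3D. In bulk RNA, fewer cells with a transcript and less of it per cell cannot be told apart.

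Sparc and Cryab were expressed in both origins, at lower levels in hepCLiP. Sparc was at 27.5, 22.5 and 16 CPM in hepCLiP 2D and at 460, 296 and 354 CPM in bilCLiP 2D. In 3D it was at 1.03, 1.70 and 0.417 CPM in hepCLiP and at 102, 58.1 and 78.8 CPM in bilCLiP. The origins were thus 16.8-fold apart in 2D and 76.0-fold in 3D, by group means, with 44 counts in all behind hepCLiP 3D. Sparc is a strong product of fibroblasts and stellate cells. Of their list of 12 genes, Dcn, Reln and Rgs5 had a group mean above 1 CPM, and all 3 rose with culture (adjusted p = 0.00629, 0.0361 and 0.0392). Reln averaged 3.54 CPM in hepCLiP 3D and 18.3 CPM in bilCLiP 3D, Rgs5 4.28 and 8.24 CPM, and Dcn 96.3 and 10.4 CPM. Col1a1 averaged 0.419 to 0.694 CPM and Col3a1 0 to 0.139 CPM over the 4 groups. The list summed to 1.45 to 11.8 CPM in hepCLiP 2D, 3.65 to 7.56 in bilCLiP 2D, 7.44 to 301 in hepCLiP 3D and 27.7 to 50.2 in bilCLiP 3D. The high value was that of hepCLiP 3D replicate 1, where Dcn alone had 282 CPM, and in that library Sparc was at 1.03 CPM. The mesothelium list of 9 genes summed to 831 to 2090 CPM in hepCLiP 2D, 1230 to 1580 in bilCLiP 2D, 7.11 to 39.1 in hepCLiP 3D and 14.3 to 40.1 in bilCLiP 3D, almost all of it Msln (559 and 701 CPM on average in hepCLiP and bilCLiP 2D) and Krt19 (860 and 694 CPM), which is also on the biliary list. The other 7 genes averaged 2.39 CPM or lower in each group, with Bnc1 at 0 in all libraries. The part of these cell types in the values of the 10 genes was not tested.

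For Cryab, the hepCLiP 2D libraries held 50.7, 87.3 and 107 CPM and the bilCLiP 2D libraries 254, 191 and 174 CPM. The 3D libraries held 6.01, 7.66 and 13.1 CPM in hepCLiP and 69.8, 38.9 and 46.2 CPM in bilCLiP. The gap between origins was the narrowest of the 6 bilCLiP-high genes, with the lowest bilCLiP library at 1.63 times the highest hepCLiP library in 2D and 2.97 times in 3D. Hspb2, another small heat shock gene, overlaps Cryab on the other strand in the GENCODE annotation of GRCm38. As strand use is not given for the counting, reads of the 2 genes may be mixed. Hspb2 had 0 to 44 counts per library and 129 in all, against 22694 for Cryab.

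Dcdc2a and Rassf9 completed the bilCLiP-high genes. Dcdc2a, the cilium gene, was at 6.80, 10.3 and 8.39 CPM in hepCLiP 2D and at 44.5, 72.1 and 66.9 CPM in bilCLiP 2D. It was at 1.10, 1.63 and 3.41 CPM in hepCLiP 3D and at 45.1, 26.8 and 18.3 CPM in bilCLiP 3D. The means differed 7.19-fold in 2D and 14.7-fold in 3D. Rassf9 was at 0.925, 2.50 and 4.70 CPM in hepCLiP 2D and at 37.6, 29.9 and 33.9 CPM in bilCLiP 2D. In 3D it was at 2.93, 1.14 and 4.66 CPM in hepCLiP 3D and 43.0, 27.8 and 33.4 CPM in bilCLiP 3D. Spread was wide in hepCLiP, where the SD was 70.0% and 60.6% of the mean in 2D and 3D, against 11.3% and 22.1% in bilCLiP.

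Kyat3 was the widest of the hepCLiP-high genes. It was at 93.3, 121 and 48.3 CPM in hepCLiP 2D and at 6.37, 2.06 and 2.05 CPM in bilCLiP 2D. In 3D it was at 209, 231 and 112 CPM in hepCLiP and at 4.41, 4.59 and 0.986 CPM in bilCLiP. The difference by group means was 25-fold in 2D and 55.3-fold in 3D. Origin took 92.5% of the sum of squares of its log2(CPM + 1) and culture 1.01%. An annotated antisense gene, Gm15540, overlaps Kyat3 and had at most 5 counts in a library.

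Gata4, Hapln4 and Prkaa2 were also higher in hepCLiP. Gata4 was a rare transcript, at 8.84, 5.68 and 2.50 CPM in hepCLiP 2D and at 0.431, 0.661 and 0.501 CPM in bilCLiP 2D. In 3D it was at 8.42, 14.2 and 5.63 CPM in hepCLiP and at 1.12, 1.78 and 2.15 CPM in bilCLiP. Only 38 counts stood behind the bilCLiP 2D group and 85 behind bilCLiP 3D. The lowest hepCLiP library was 3.78 times the highest bilCLiP library in 2D and 2.62 times in 3D.

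Hapln4 had the tightest replicates in 2D, with 7.63, 6.91 and 7.19 CPM in hepCLiP and 2.37, 2.53 and 2.23 CPM in bilCLiP. In 3D it reached 61.3, 69.2 and 45.0 CPM in hepCLiP and 21.4, 26.9 and 17.0 CPM in bilCLiP. The fold of group means was 3.05 in 2D and 2.69 in 3D. Prkaa2 was at 28.6, 29.6 and 19.7 CPM in hepCLiP 2D and at 11.4, 7.39 and 9.52 CPM in bilCLiP 2D. It was at 73.2, 80.6 and 71.2 CPM in hepCLiP 3D and at 43.9, 59.6 and 41.4 CPM in bilCLiP 3D. The Prkaa2 origins came closest in 3D, 1.55-fold apart by means, with the lowest hepCLiP library at 1.20 times the highest bilCLiP library.

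**Figure D3:**
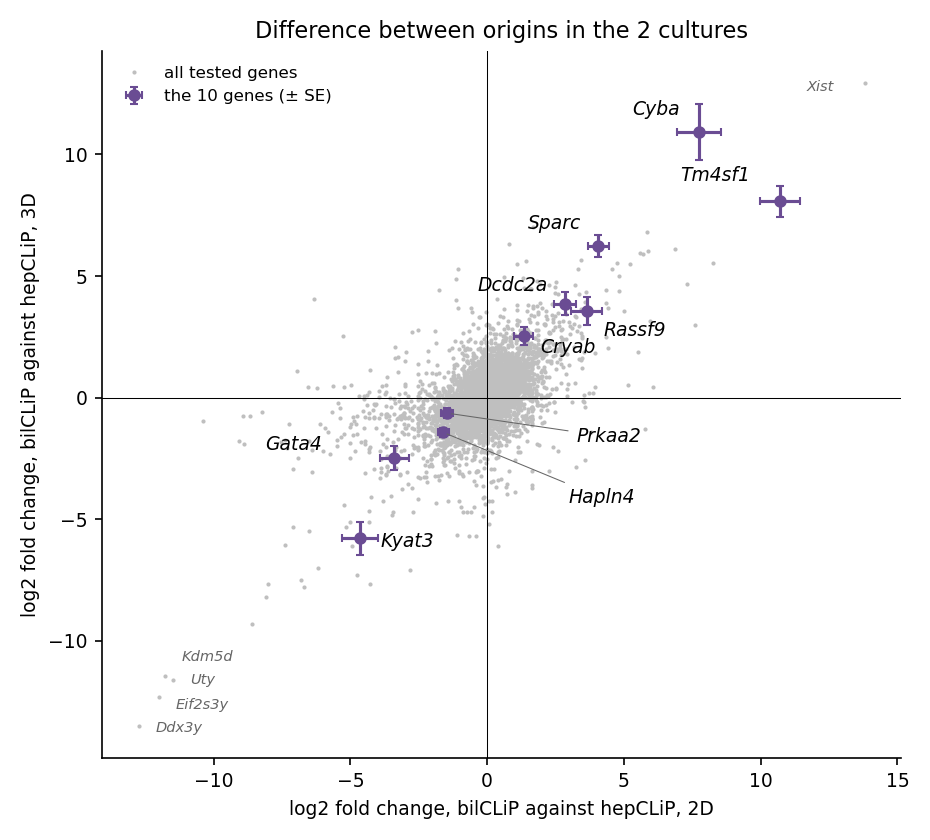
Log2 fold change of bilCLiP against hepCLiP in 2D (x axis) and in 3D (y axis), for all 14798 tested genes (grey) and the 10 genes (purple, bars are SE). Each of the 10 has the same sign in both cultures, and Xist and the Y-linked genes lie at the far ends. The 3D value of Cyba rests on the prior count of the fit, since hepCLiP 3D had 0 counts.

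Culture was tested as the mean of the 3D against 2D changes in both origins, a contrast whose weights are orthogonal to those of the origin differences. The culture test and the origin differences share libraries and the estimate of spread of each gene. The culture p-values of the 10 are therefore not fully independent of how these genes were chosen. With this contrast, 3 of the 10 genes rose in 3D (Hapln4, Prkaa2 and Gata4), 3 fell (Sparc, Cryab and Dcdc2a) and 4 were not called (Tm4sf1, Cyba, Rassf9 and Kyat3). Of all tested genes 49.1% were called, 23.8% higher and 25.3% lower in 3D, so the count among the 10 is near that of genes at large. All p-values of this contrast are from edgeR, adjusted over all genes. Hapln4 rose 8.58-fold (log2 fold change 3.10 ± 0.150, SE; adjusted p = 4.19e-07), with all 3D libraries above all 2D libraries in each origin. Prkaa2 rose 3.84-fold (1.94 ± 0.152; adjusted p = 6.01e-06), again without overlap in either origin. Gata4 rose 2.28-fold (1.19 ± 0.353; adjusted p = 0.0163), without overlap in bilCLiP and with overlap in hepCLiP. The Gata4 call was lost when hepCLiP replicate 2 was left out in both cultures, an alternative chosen after seeing the data (log2 fold change 0.98, adjusted p = 0.0741).

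Sparc fell by 3.30 ± 0.275 on the log2 scale (9.85-fold; adjusted p = 8.28e-06), without overlap in either origin. Cryab fell by 2.60 ± 0.256 (6.04-fold; adjusted p = 2.32e-05), likewise without overlap. Dcdc2a fell by 1.54 ± 0.294 (2.90-fold; adjusted p = 0.00145), with overlap in bilCLiP, where replicate 1 held 44.5 CPM in 2D and 45.1 in 3D. In hepCLiP 22.3% of all genes were higher in 3D without overlap and 24.5% lower, and in bilCLiP 24.6% and 24.5%. Rassf9 had a log2 fold change of 0.07 ± 0.370 (adjusted p = 0.885), Kyat3 of 0.50 ± 0.417 (0.349) and Tm4sf1 of 0.54 ± 0.484 (0.383). For Cyba the fitted value was -2.09 ± 0.964 (adjusted p = 0.103), which depends on the prior count because of the 0 counts in hepCLiP 3D. It was -1.35 without hepCLiP 2D replicate 1 (adjusted p = 0.303), -0.74 by limma (adjusted p = 0.148) and -0.25 with RosaYFP samples only (adjusted p = 1). With the replicate number of each origin as a block, Cyba was called (-2.05 ± 0.586; adjusted p = 0.0274).

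Within each origin the culture changes of the 10 are given as values without a test, as each shares libraries with the origin differences. Hapln4 changed by 3.01 ± 0.210 in hepCLiP and 3.19 ± 0.216 in bilCLiP on the log2 scale, and Prkaa2 by 1.53 ± 0.212 and 2.35 ± 0.219. Sparc changed by -4.38 ± 0.425 and -2.21 ± 0.348, Cryab by -3.19 ± 0.375 and -2.0 ± 0.351, and Dcdc2a by -2.05 ± 0.437 and -1.02 ± 0.394. These 3 bilCLiP-high genes thus had larger fitted falls in hepCLiP, which is the same as origins further apart in 3D than in 2D. Cryab was called between origins in 3D and not in 2D, so the choice of genes favours its wider gap in 3D. Gata4, Prkaa2 and Rassf9 were called in 2D and not in 3D, so for them the choice favours a wider gap in 2D. Gata4 had 0.73 ± 0.476 in hepCLiP and 1.65 ± 0.522 in bilCLiP. Tm4sf1 had 1.87 ± 0.869 in hepCLiP, from 10 to 25 counts, and -0.78 ± 0.442 in bilCLiP. The hepCLiP value was 0.85 without hepCLiP 3D replicate 3 and -0.34 with RosaYFP samples only.

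**Figure D4:**
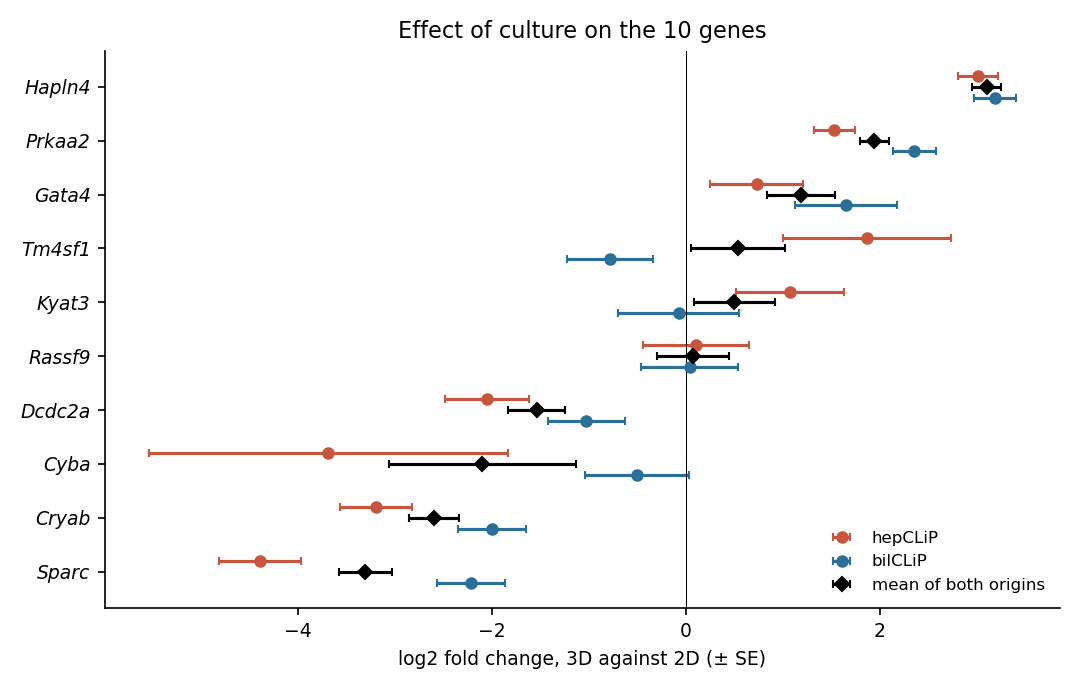
Log2 fold change of 3D against 2D for the 10 genes, in hepCLiP (red), in bilCLiP (blue) and as the mean of both origins (black), with bars of 1 SE. Hapln4, Prkaa2 and Gata4 lie above 0 and Sparc, Cryab and Dcdc2a below it in both origins, and the wide hepCLiP bar of Cyba rests on 5 counts in 2D and 0 in 3D.

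Relatives and partners of each gene were taken from 10 lists, and those that are not among the 10 were compared between origins first. Of 74 such genes tested, 0 were called by edgeR in 2D or 3D, with 11 and 17 at an unadjusted p under 0.05 (14.9% and 23.0%, against 14.5% and 16.6% of all genes). DESeq2 called 3 in 2D (Noxa1, Prkab1 and Stk11) and 6 in 3D (Acaca, Cybc1, Ido2, Kmo, Stk11 and Ulk1), and limma on the authors' normalized counts 0 in both. Tm4sf4, the other abundant L6 gene, was at 255 and 299 CPM in hepCLiP and bilCLiP 2D and at 384 and 571 CPM in 3D. Prkaa1, which encodes the other AMPK alpha subunit, was at 85.6 and 78.4 CPM in 2D and at 69.4 and 58.8 CPM in 3D. Gata6, the close relative of Gata4, was at 39.6 and 49.8 CPM in 2D and at 32.7 and 43.4 CPM in 3D. Kyat1, which encodes another kynurenine aminotransferase, was at 9.43 and 7.13 CPM in 2D and at 120 and 121 CPM in 3D.

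With culture, the lists went different ways, beside a median log2 fold change of -0.03 over all genes. In the kynurenine pathway, which degrades tryptophan, 10 of 12 tested genes rose, none fell, and Kyat3 and Afmid were not called (median 4.53). Haao rose by 9.60 ± 0.883, Tdo2, the enzyme of the first step, by 8.82 ± 1.19, Qprt by 7.19 ± 1.04 and Kynu by 5.64 ± 0.687, with adjusted p-values of 0.000248 or lower. Of 17 AMPK subunits, kinases and targets 6 rose and 1 fell (median 0.16), led by Prkaa2 and the acetyl-CoA carboxylase gene Acacb (1.79 ± 0.408; adjusted p = 0.00398). Cab39l and Stradb, partners of the AMPK-activating kinase, rose by 1.43 ± 0.177 and 1.14 ± 0.156. Prkaa1 had -0.36 ± 0.140 (adjusted p = 0.0541), and was called with the replicate block (adjusted p = 0.00448), which made 2 that fell. That count was also 2 without hepCLiP 2D replicate 3, without bilCLiP 3D replicate 3 and by limma.

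Among GATA factors and cofactors Gata4 was the gene that rose of 7 tested, and 3 fell (median log2 fold change -2.33). Gata3 fell by 3.15 ± 0.75, the cofactor gene Zfpm2 fell by 2.91 ± 0.433 and Gata2 fell by 2.33 ± 0.827, of which 1 was called with RosaYFP samples only. With the replicate block Tbx3 was added (-2.11 ± 0.553; adjusted p = 0.0155), which made 4 that fell. Of 4 tested genes of hyaluronan links and partners Hapln4 rose, and the proteoglycan gene Vcan (fell by 4.73 ± 0.319) and the hyaluronan receptor gene Cd44 (fell by 1.56 ± 0.189) fell (median -0.79). By DESeq2 and without a low-count filter 2 rose. Hapln1, Hapln2 and Hapln3 did not pass the filter. In the SPARC family, with 3 tested, Fstl1, like Sparc, fell, and it fell by 4.38 ± 1.11 (adjusted p = 0.00746), while Smoc1 rose by 3.14 ± 0.434 (median -3.30). With RosaYFP samples only, 1 of the 3 fell.

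The NADPH oxidase list had 2 genes that rose of 6 tested, both catalytic subunits (median 0.27): Cybb by 2.81 ± 0.695 (adjusted p = 0.00652) and Nox4 by 2.34 ± 0.694 (adjusted p = 0.0167). Without a low-count filter 1 rose and with RosaYFP samples only 0. Rac1 fell by 0.85 ± 0.142, and with the replicate block Cyba made 2 that fell. In the doublecortin and cilium list of 12 tested, 3 rose and 4 fell (median 0.04), among the latter Pkhd1, which encodes fibrocystin of the biliary cilium (fell by 2.21 ± 0.267), and Dcdc2a itself. With the replicate block Dclk3 was added to those that rose (1.09 ± 0.381; adjusted p = 0.0413). The RASSF family had 4 that rose of 9 tested, led by Rassf4 (3.79 ± 0.394) and Rassf8 (1.15 ± 0.158), and none that fell (median 0.21), or 1 with the replicate block, Rassf6. In this family 1 also fell without bilCLiP 2D replicate 1 and without hepCLiP 3D replicate 2. Small heat shock genes and partners rose in 4 and fell in 3 of 11 cases (median -0.21), with Hspa1b higher (2.36 ± 0.214) and Cryab, Hspb2 and Hspb1 lower, and 5 fell with the replicate block, Bag3 and Hsf1 being added, and 5 by limma. The rises numbered 2 without hepCLiP 2D replicate 1, bilCLiP 2D replicate 1 or bilCLiP 3D replicate 2, without a low-count filter, and with RosaYFP samples only. In the L6 family, Tm4sf4 rose by 0.76 ± 0.269 (adjusted p = 0.0363) of 3 tested (median 0.76), and Tm4sf20 was added with the replicate block (2.89 ± 1.02; adjusted p = 0.0462). The L6 count was 0 without hepCLiP 2D replicate 1 or 2, bilCLiP 2D replicate 1 or 2, hepCLiP 3D replicate 3, or bilCLiP 3D replicate 2 or 3, as it was without a low-count filter and with RosaYFP samples only, and it was 2 without bilCLiP 2D replicate 3.

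**Figure D5:**
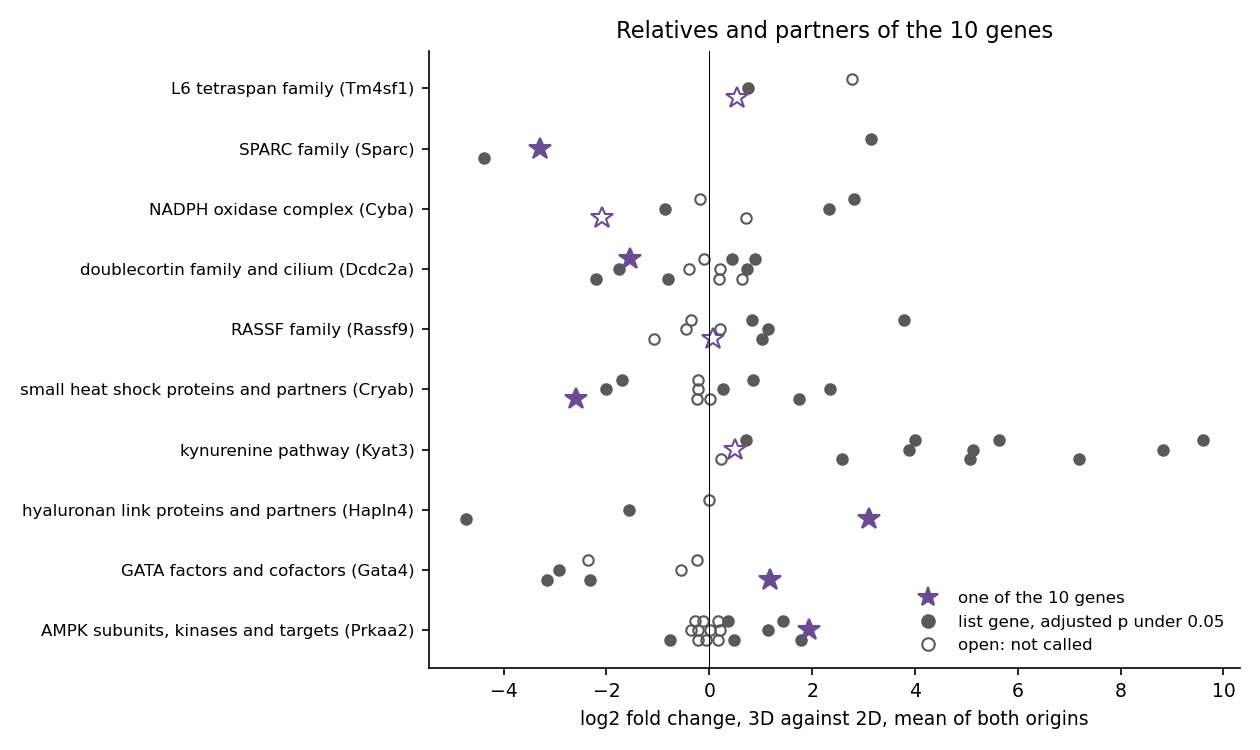
Log2 fold change of 3D against 2D, as the mean of both origins, for the tested genes of the 10 lists around the 10 genes. Stars are the 10 genes, circles are other list genes, filled symbols passed an adjusted p of 0.05 and open ones did not. Most kynurenine pathway genes lie far above 0 while Kyat3 lies near it, and Hapln4 and Gata4 stand on the other side of 0 from most of their list.

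The genes most alike in pattern were found by Pearson's r of log2(CPM + 1) over the 12 libraries, among 9906 (9907 for Gata4) named autosomal genes with a mean of at least 5 CPM. Tm4sf1, Cyba and Rassf9 were each other's nearest, with r of 0.951 to 0.961. Sparc and Dcdc2a were close to each other (0.953) and to Lamtor3 (0.933 and 0.976). The nearest were G2e3 (0.974) and Olfr1372-ps1 (0.972) for Cryab, Ube2j2 (0.926) and Dnmbp (0.917) for Kyat3, and Pole4 and Pcx (both 0.979) for Hapln4. For Gata4 they were Stk11 (0.965) and Polrmt (0.958), and for Prkaa2 Sardh (0.977) and Stx18 (0.970). These values are over libraries that share origin, culture and line, and they are given as a description with no p.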

How the data were processed

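RNA-seq of 12 libraries was analysed from the raw gene counts that the authors deposited. Per the submitters' processing notes, the tools were featureCounts 2.0.1, STAR 2.7.10b and DESeq2 (no version), on build GRCm39. Annotation, counting options and strand were not given in the sources used here. The authors' normalized table (unit signal), which per its values is the raw counts divided by 1 constant per sample, entered an alternative. Counts were filtered with filterByExpr, scaled by TMM and fitted with edgeR 4.0.16 in R 4.3.3 (robust glmQLFit and glmQLFTest, 4 group means over all 12 samples), with calls at a Benjamini-Hochberg adjusted p under 0.05. Each SE is the size of the log2 fold change over the root of its F. On simulated data (14798 genes, 200 changed), the test of the mean culture effect recovered 51% of 2-fold and 84% of 4-fold changes. Far more genes were called in the real data (49.1%), so these rates do not carry over to the real test. Depth was 16142365 to 21253382 counts per library. Same-numbered 2D and 3D libraries of 1 origin carry the same genotype tag. They deviated together from their group means (r = 0.432 to 0.513 across genes), so the number was taken to pair them. The main fit and its p-values leave this pairing out, and it entered as the replicate block alone. Alternatives were DESeq2 1.42.0, limma 3.58.1, other scaling, no filter, RosaYFP samples only, each library left out and the replicate block. The 10 genes and the lists of relatives and markers were chosen with earlier results of these data known. Besides the 10, the text names the 2 genes nearest to each in pattern, up to 4 called genes per list with the largest change, and close partners, and other genes were chosen after their values were seen.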

Additional observations from a re-analysis of the deposited data

How the results depend on the processing

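The 19 alternatives, 1 of them chosen after seeing the data, left the count of the 10 genes called with culture at 3 higher and 3 lower, except for 4 lower with the replicate block (Cyba added) and 2 higher when hepCLiP replicate 2 was left out in both cultures (Gata4 lost). The counts over all genes were 3187 to 3640 higher and 3339 to 3605 lower in 3D when 1 library was left out, 4187 and 4534 with the replicate block, and 2313 and 2321 with RosaYFP samples only, where the lone hepCLiP library of each culture takes its spread from the bilCLiP libraries. The block changed no other call of the 10.

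The origin counts depend far more on the setting. In 2D, higher and lower in bilCLiP, they were 152 and 307 by DESeq2, 19 and 20 by limma on the authors' normalized counts, 4 and 1 with RosaYFP samples only, and 52 and 64 without hepCLiP replicate 2 in both cultures. In 3D they were 236 and 341 by DESeq2 and 45 and 46 without hepCLiP replicate 2, and the lower count was 11 without a low-count filter, 14 by limma and 2 with RosaYFP samples only. Leaving out 1 library gave 4 to 13 higher and 2 to 20 lower in 2D, and 3 to 129 and 0 to 122 in 3D. The cause was not tested.

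The 10 were chosen on the origin difference in these same libraries, so refits of them could hardly reverse it. The sign of the origin difference of the 10 held in all 360 values from these alternatives. It moved by over 1.5-fold in 11: with RosaYFP samples only for Cyba in 2D (log2 11.49), Tm4sf1 (10.07), Rassf9 (4.92), Sparc (5.54) and Gata4 (-3.08) in 3D, without hepCLiP 2D replicate 1 for Cyba (9.22), without hepCLiP 2D replicate 3 for Rassf9 (4.29), without bilCLiP 2D replicate 1 for Kyat3 (-5.41), without hepCLiP 3D replicate 3 for Tm4sf1 (9.08), and for Cyba in 3D by DESeq2 (9.91) and limma (7.72). The culture effect, not called for either gene, changed sign for Rassf9 (-0.55) and Tm4sf1 (-0.56) with RosaYFP samples only, and ranged from -0.18 to 0.40 for Rassf9 when 1 library was left out. Of 380 culture values within an origin, 13 moved by over 1.5-fold and 9 changed sign. With RosaYFP samples only, the hepCLiP values were 0 for Cyba, -2.66 for Dcdc2a, 1.32 for Gata4, -1.14 for Rassf9 and -3.72 for Sparc. Without 1 library they were -2.19 for Cyba in hepCLiP (hepCLiP 2D replicate 1), 0.76 for Rassf9 in hepCLiP (hepCLiP 2D replicate 3) and 0.69 for Kyat3 in bilCLiP (bilCLiP 2D replicate 1). Depth limits Cyba and Tm4sf1 in hepCLiP, Sparc in hepCLiP 3D and Gata4 in bilCLiP, with 0 to 85 counts per group.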

Other observations

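Over 10 genes in 2 origins, the 3 replicates kept the same order in 2D and 3D in 7 of 20 cases. These were Cryab, Kyat3 and Prkaa2 in hepCLiP and Hapln4, Rassf9, Sparc and Tm4sf1 in bilCLiP. Cyba in hepCLiP could give no order, being at 0 in all 3D libraries. The share over all tested genes was not computed, so the count says nothing particular to the 10. Kyat3 was highest in hepCLiP replicate 2 and lowest in hepCLiP replicate 3 in 2D (121 and 48.3 CPM) and in 3D (231 and 112 CPM). Cryab in hepCLiP was lowest in replicate 1 (50.7 and 6.01 CPM) and highest in replicate 3 (107 and 13.1 CPM). Sparc kept its order in bilCLiP, highest in replicate 1 (460 and 102 CPM) and lowest in replicate 2 (296 and 58.1 CPM). Sparc in hepCLiP did not, highest in replicate 1 in 2D (27.5 CPM) and in replicate 2 in 3D (1.70 CPM), and neither did Dcdc2a, for which bilCLiP replicate 1 was the lowest in 2D (44.5 CPM) and the highest in 3D (45.1 CPM).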
